A study of Homo sapiens with 21 samples.

Results

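Chromatin accessibility was examined around 10 genes that encode growth factor receptor tyrosine kinases: FGFR1, FGFR2, FGFR3, FGFR4, PDGFRA, PDGFRB, IGF1R, KIT, EGFR and MET. The members were all consensus accessible sites whose nearest annotated gene, in the annotation deposited with the data, was one of these 10. This gave 237 sites of 367900 in all. PDGFRA had the most sites (41), followed by KIT (39), MET (33), IGF1R (32), FGFR2 (31), EGFR (19), FGFR3 (14), PDGFRB (12), FGFR1 (11) and FGFR4 (5). A low-count filter left 232 of them, of 357029 sites tested, and the 5 sites that were not tested belonged to FGFR3, PDGFRA, KIT, EGFR and MET, 1 each.

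The assay was ATAC-seq, whose transposase, Tn5, cuts and tags open DNA. The cells were SK-N-BE(2), a long-established line from a human neuroblastoma. All 21 libraries came from cells transduced with lentiviral short hairpin RNAs (shRNAs) and collected at 72 h, in 7 groups of 3. The Control group carried a non-silencing shRNA. Single groups carried 1 shRNA against ARID1A (shARID1A.2 or shARID1A.4) or ARID1B (shARID1B.2 or shARID1B.3), and the combinations carried 1 of each, which the label numbers give as shARID1A.2 with shARID1B.3 (shARID1A/B.2.3) and shARID1A.4 with shARID1B.2 (shARID1A/B.4.2). ARID1A and ARID1B are alternative subunits that hold together the BAF chromatin remodeller, so the comparisons ask which sites need either or both. All groups share 1 cell line, and the submitters' design text calls the 3 libraries of a group biological triplicates. Accessibility does not report how far the silenced messages fell.

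Receptor tyrosine kinases span the membrane, pair up when an extracellular growth factor binds, and phosphorylate each other to start RAS-MAPK and PI3K signalling. FGF, PDGF and stem cell factor receptors are used by neural crest cells and their derivatives, and neuroblastoma arises from that lineage. A gene of this kind is usually controlled by a promoter at its start and by enhancers in its introns or in the flanking DNA, and both appear as accessible sites.

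Library totals ran from 16140029 to 44472230 reads in sites, and levels are given as CPM, read counts scaled to library size with trimmed mean of M-values (TMM) factors. A site was called closed or opened at an edgeR false discovery rate (FDR) under 0.01 over all tested sites. The sites with the largest fall or rise of a gene were chosen by that change, so their values in combined silencing against Control describe them and test nothing further. At these sites, comparisons that reuse the combination or Control libraries are not independent of that choice. The second shARID1A/B.2.3 library stood farthest from its own group, with a chi-square per degree of freedom over sites of 2.5 and 2.22 against the other two, where no other pair within a group exceeded 1.97. The promoter share of reads was 20.0% to 20.6% in the Control libraries and 23.4% to 25.1% in the combination libraries. Among marker genes of the labelled line, sites near the starts of PHOX2A (24.0 ± 2.72 CPM, SD, n = 3), HAND2 (43.9 ± 2.67) and GATA3 (15.6 ± 1.04), transcription factors of the adrenergic lineage, were open in Control, as was that of the mesenchymal factor SNAI2 (36.0 ± 0.826). The adrenergic enzymes DBH (10.3 ± 1.46) and TH (2.43 ± 0.393) had weaker sites, and the adrenergic factor ISL1 and the mesenchymal genes PRRX1 and VIM had no tested site within 1000 bases of the start. The same held for PTPRC, CD3E, ALB and PECAM1, markers of blood, liver and vessel cells, whereas the epithelial gene EPCAM had one at 6.62 ± 0.689 CPM.

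Distances below run from the start of the MANE Select transcript, the reference isoform of each gene in GENCODE, to the centre of the site. The 300 bases at the centre of 5 sites are printed because the results turn on them: the largest falls of PDGFRB, IGF1R, KIT and PDGFRA, and the largest rise of KIT. They are read from GRCh38, plus strand, 5′ to 3′. Capitals mark matches, on either strand, to short motifs. The letters TGANTCA stand for AP-1 and AGATAA for GATA factors. The letters CATCTG are an E-box bound by neural bHLH factors, TAATTA is a homeodomain core, and CATTCC stands for TEAD factors.

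PDGFRB, 2508 bases upstream of the start, chr5:150158203-150158502: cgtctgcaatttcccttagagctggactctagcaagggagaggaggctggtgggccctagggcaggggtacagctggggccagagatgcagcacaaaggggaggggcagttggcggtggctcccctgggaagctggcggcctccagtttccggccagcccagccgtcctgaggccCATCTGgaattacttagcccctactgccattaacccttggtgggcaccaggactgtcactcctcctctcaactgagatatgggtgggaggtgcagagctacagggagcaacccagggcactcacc

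IGF1R, intron 1, 30864 bases downstream, chr15:98679253-98679552: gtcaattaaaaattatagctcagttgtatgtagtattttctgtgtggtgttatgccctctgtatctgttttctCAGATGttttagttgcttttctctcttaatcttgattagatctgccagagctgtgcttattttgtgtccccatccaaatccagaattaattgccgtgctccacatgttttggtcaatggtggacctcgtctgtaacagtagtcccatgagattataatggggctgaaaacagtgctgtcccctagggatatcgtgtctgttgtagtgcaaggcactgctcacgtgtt

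KIT, intron 4 of 20 in the deposited annotation, 43150 bases downstream, chr4:54700957-54701256: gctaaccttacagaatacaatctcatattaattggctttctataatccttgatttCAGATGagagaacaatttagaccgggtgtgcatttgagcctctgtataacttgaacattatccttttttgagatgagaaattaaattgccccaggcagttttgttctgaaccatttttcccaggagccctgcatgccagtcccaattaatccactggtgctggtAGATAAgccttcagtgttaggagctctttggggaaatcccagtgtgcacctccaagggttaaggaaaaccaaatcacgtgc

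KIT, intron 7 of a transcript with 9 introns, 58953 bases downstream, chr4:54716760-54717059: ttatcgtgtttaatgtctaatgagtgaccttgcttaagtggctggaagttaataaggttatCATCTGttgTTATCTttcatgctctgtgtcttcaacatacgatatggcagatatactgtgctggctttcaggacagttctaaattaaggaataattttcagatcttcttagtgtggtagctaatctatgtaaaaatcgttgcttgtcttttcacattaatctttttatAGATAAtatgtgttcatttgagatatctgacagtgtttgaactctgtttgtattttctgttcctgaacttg

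PDGFRA, 31599 bases upstream, chr4:54197544-54197843: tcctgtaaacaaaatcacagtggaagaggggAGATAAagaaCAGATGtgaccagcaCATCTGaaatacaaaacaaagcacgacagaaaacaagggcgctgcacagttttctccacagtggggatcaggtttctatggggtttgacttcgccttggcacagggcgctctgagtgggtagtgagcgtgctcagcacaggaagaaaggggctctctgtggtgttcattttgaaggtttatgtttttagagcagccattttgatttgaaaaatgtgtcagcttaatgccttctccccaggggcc

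With both genes silenced, sites around PDGFRB, FGFR1, FGFR2 and IGF1R closed, while the accessible gene starts of FGFR1, IGF1R and EGFR opened by log2 0.32 to 0.38 over both combinations together, a call carried by shARID1A/B.4.2. Of the 232 receptor gene sites, 30 closed (12.9%) and 7 opened (3.02%) in the combinations against Control, beside 10.3% closed and 3.43% opened over all tested sites. The shares were thus near the background for the 10 genes as a whole, and the median log2 change of the receptor sites was -0.03 beside 0.03 over all sites. By gene, 6 of 12 PDGFRB sites closed, 5 of 11 FGFR1 sites, 9 of 31 FGFR2 sites, 6 of 32 IGF1R sites, 3 of 40 PDGFRA sites and 1 of 38 KIT sites. No EGFR, MET, FGFR3 or FGFR4 site was called closed by edgeR or by DESeq2. At an unadjusted p under 0.05, edgeR gave 1 lower site of 18 for EGFR, 2 of 32 for MET, and 0 of 13 and 0 of 5 for FGFR3 and FGFR4. For counts at that limit, here and below, the share over all sites was not computed. In 28 of the 30 closed sites all 6 combination libraries lay below all 3 Control libraries, and in 5 of the 7 opened sites all 6 lay above. The sites were called on these same libraries, so this separation describes them and tests nothing further. Its share among all called sites was not computed. Scaling the libraries on promoter sites instead lowered the median log2 change over all sites from 0.03 to -0.20 and gave 46 closed and 0 opened receptor sites. Over all 357029 tested sites that scaling gave 56825 closed and 2601 opened, where TMM gave 36610 and 12247.

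**Figure D1:**
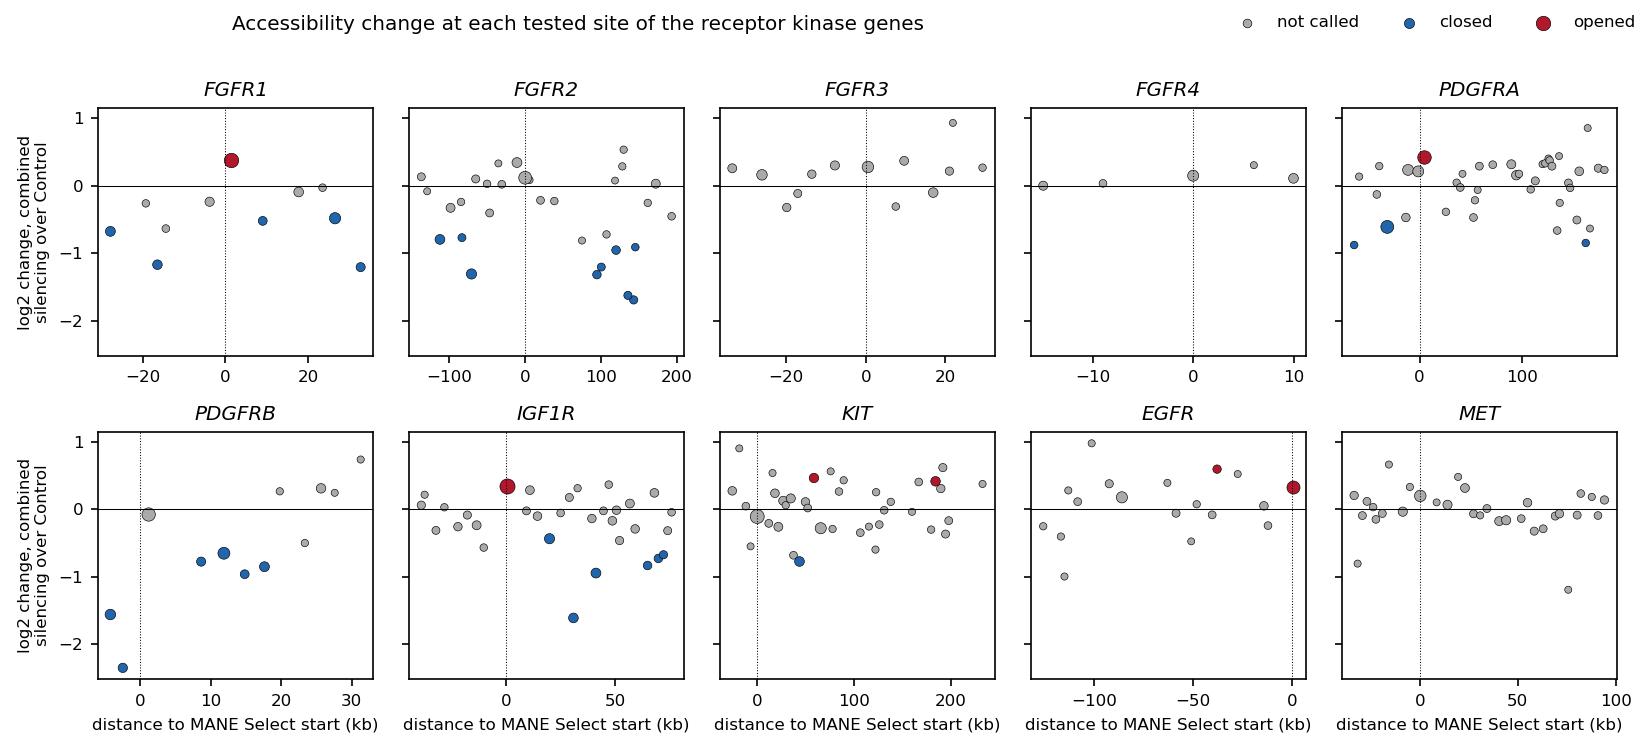
Each point is a tested site of 1 gene: the x axis gives its distance from the MANE Select start in kb, the y axis the log2 change of combined silencing over Control, and point area grows with mean CPM. Blue sites closed and red sites opened at an edgeR FDR under 0.01; closed sites lie away from the starts of PDGFRB, FGFR1, FGFR2 and IGF1R, and MET, FGFR3 and FGFR4 have none.

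The 30 closed receptor sites had a median level of 3.44 CPM and a median GC content of 48.5%, and the 7 opened sites 27 CPM and 63.2%. Over all tested sites the medians were 2.57 CPM and 44.1% for closed and 11.6 CPM and 57.8% for opened sites, and no difference was tested. Of the 89 sites in introns, 15 closed (16.9%) and 4 opened (4.49%), beside 12% and 2.09% of all intron sites. The opened intron sites include those over the FGFR1 and EGFR starts, which the deposited annotation places in intron 1. Of the 125 intergenic sites, 13 closed (10.4%) and 2 opened (1.6%), beside 9.39% and 1.9% of all intergenic sites. Of the 6 sites annotated as promoters, 1 closed, 9040 bases downstream of the FGFR1 MANE Select start (log2 -0.52 ± 0.145, edgeR FDR = 0.00455, chosen after its values were seen), and 1 opened, beside 4.24% and 33.4% of all promoter sites. Among the 131 receptor sites with a mean of at least 1 CPM, 27 closed (20.6%), where 16.5% of all sites at that level closed.

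PDGFRB, the receptor for PDGF-BB that marks pericytes and other mesenchymal cells, held the largest fall. Its site 2508 bases upstream (chr5:150158124-150158583, intergenic) measured 8.81, 7.81 and 9.06 CPM in Control. It measured 1.58, 1.07 and 1.19 CPM in shARID1A/B.2.3 and 2.06, 1.93 and 2.69 CPM in shARID1A/B.4.2. Every combination library lay below every Control library, for a log2 change of -2.35 ± 0.13 (SE, edgeR FDR = 4.02e-29). Each single shRNA also lowered the site (edgeR FDR from 8.22e-19 to 0.000294), to 3.54 ± 0.569 CPM (SD, n = 3) with shARID1A.2 and 5.41 ± 0.646 with shARID1A.4. The ARID1B shRNAs gave 5.43 ± 0.641 CPM (shARID1B.2) and 2.49 ± 0.303 CPM (shARID1B.3). In the order of group means, shARID1B.2 and shARID1A.4 did not differ beyond their spread, nor did shARID1B.3 and shARID1A/B.4.2. Combined silencing lowered the site further than single silencing, with a log2 difference of -1.26 ± 0.11 (SE, edgeR FDR = 7.82e-17). That comparison reuses the combination libraries by whose fall the site was chosen, so it also describes the site and is no independent test.

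A second upstream PDGFRB site, 4273 bases from the start (chr5:150159747-150160489) and chosen after its values were seen, followed the same order of Control, single and combined groups. It measured 15.9, 13.7 and 14.6 CPM in Control, 3.81, 3.23 and 4.04 CPM in shARID1A/B.2.3, and 7.12, 6.9 and 6.49 CPM in shARID1A/B.4.2. Both combinations lay below Control without overlap, and the log2 change was -1.56 ± 0.10 (SE, edgeR FDR = 2.09e-25). The other 4 closed PDGFRB sites lie in intron 1, between 8616 and 17606 bases downstream, with log2 changes from -0.65 to -0.96. At the highest of them, 11849 bases downstream, the means were 21.4 ± 0.556 CPM in Control, 14.8 ± 1.61 and 14.7 ± 0.636 with the ARID1A shRNAs, 24.4 ± 1.81 with shARID1B.2 and 14.8 ± 0.153 with shARID1B.3. The combinations gave 10.8 ± 1.36 CPM (shARID1A/B.2.3) and 17.3 ± 0.642 CPM (shARID1A/B.4.2), the latter above both ARID1A groups and shARID1B.3. The site over the PDGFRB start itself (chr5:150152908-150156455) was not called, at 30.2 ± 3.31 CPM in Control, 24.5 ± 3.8 in shARID1A/B.2.3 and 33.5 ± 0.719 in shARID1A/B.4.2 (log2 -0.08 ± 0.08, SE, edgeR FDR = 0.57).

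**Figure D2:**
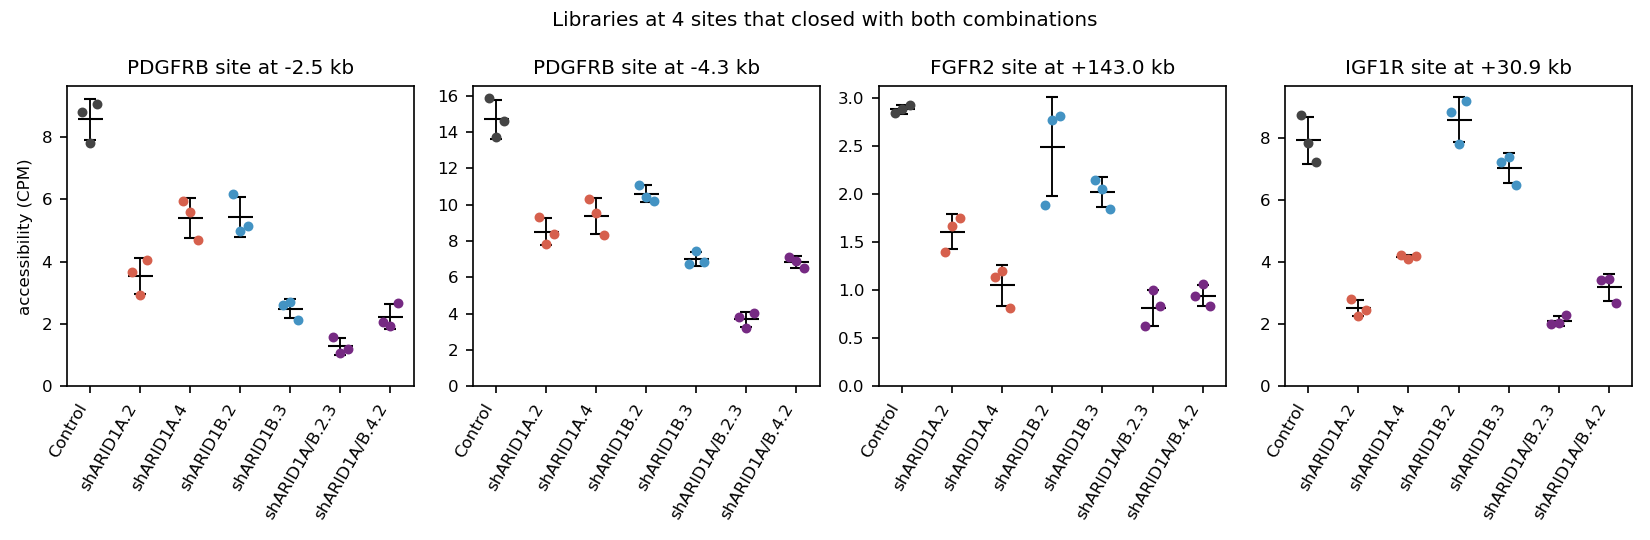
Points are single libraries, bars the mean ± SD (n = 3), and the y axis is accessibility in CPM for the 7 groups. At both PDGFRB sites, the FGFR2 site and the IGF1R site every combination library lies below every Control library; at IGF1R the shARID1B groups, with means of 8.58 and 7.02 CPM, stay near the Control mean of 7.91 CPM.

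The FGF receptors did not behave as 1 group. FGFR2, which serves epithelial and neural FGF signalling, had 9 closed sites on both sides of its start. The largest fall was 143001 bases downstream, beyond the end of the gene (chr10:121455113-121455773), where Control measured 2.84, 2.88 and 2.93 CPM. The site measured 0.624, 0.999 and 0.835 CPM in shARID1A/B.2.3 and 0.941, 1.06 and 0.835 CPM in shARID1A/B.4.2. The groups did not overlap and the log2 change was -1.69 ± 0.17 (SE, edgeR FDR = 6.03e-14). It fell with ARID1A silencing (log2 -1.13 ± 0.17, SE, edgeR FDR = 1.36e-07), while the value for ARID1B silencing was -0.36 ± 0.15 (edgeR FDR = 0.139), and the difference between them passed the test (-0.77 ± 0.15, edgeR FDR = 5.04e-05). The highest closed FGFR2 site, 70239 bases upstream and chosen after its values were seen, went from 11.2 ± 0.505 CPM in Control to 3.57 ± 0.661 in shARID1A/B.2.3 and 5.89 ± 0.645 in shARID1A/B.4.2. The site over the FGFR2 start was not called, with 22.7 ± 1.49 CPM in Control and means of 23.5 ± 1.33 and 25.6 ± 1.1 in the combinations.

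FGFR1, the main FGF receptor of neural crest derivatives, lost accessibility at 5 sites and gained it at its start. The largest fall was 32767 bases downstream, in an intron (chr8:38435408-38436329). Control measured 5.29, 4.81 and 5.01 CPM, shARID1A/B.2.3 1.74, 1.58 and 1.8 CPM, and shARID1A/B.4.2 2.87, 2.44 and 3.11 CPM. The groups did not overlap, and the log2 change was -1.21 ± 0.13 (SE, edgeR FDR = 3.28e-13). ARID1A silencing alone lowered it (-0.88 ± 0.13, edgeR FDR = 6.27e-08) and further than ARID1B silencing did (difference -0.63 ± 0.11, edgeR FDR = 6.79e-06). The intergenic site 16475 bases upstream, chosen after its values were seen, instead fell with both, by log2 -0.78 for ARID1A and -0.71 for ARID1B silencing, from 7.86 ± 0.504 CPM in Control to single-group means of 4.48 to 4.89 CPM.

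FGFR3 and FGFR4, FGF receptors known for bone growth and for bile acid control in liver, had no called site in the combinations. At the FGFR3 start the means were 12.5 ± 2.3 CPM in Control, 14.8 ± 2.67 in shARID1A/B.2.3 and 15.6 ± 0.376 in shARID1A/B.4.2 (log2 0.275 ± 0.11, SE, edgeR FDR = 0.0537). It was called when Control replicate 1 was left out (0.41) or when shARID1A/B.2.3 replicate 2 was (0.35). At unadjusted p under 0.05, 4 FGFR3 sites were higher. At the FGFR4 start, Control measured 10.8, 8.92 and 11.1 CPM and shARID1B.2 6.96, 9.37 and 7.59 CPM, while shARID1B.3 measured 12.7, 12 and 11.4 CPM. The shRNAs against ARID1B thus differed from each other there (log2 -0.61 ± 0.12 for shARID1B.2 against shARID1B.3, edgeR FDR = 3.74e-05).

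IGF1R, the receptor for insulin-like growth factors, lost accessibility at 6 sites in its first 2 introns. The largest fall lay in intron 1, 30864 bases downstream (chr15:98678952-98679854). Control measured 8.71, 7.81 and 7.22 CPM, shARID1A/B.2.3 2.0, 2.04 and 2.29 CPM, and shARID1A/B.4.2 3.41, 3.45 and 2.69 CPM. The groups did not overlap (log2 -1.61 ± 0.11, SE, edgeR FDR = 6.78e-22). ARID1A shRNAs alone lowered it to 2.52 ± 0.27 and 4.17 ± 0.0528 CPM, whereas the ARID1B shRNAs gave 8.58 ± 0.711 and 7.02 ± 0.484 CPM. The log2 change was -1.28 ± 0.11 for ARID1A silencing and -0.02 ± 0.10 for ARID1B silencing, and the difference of -1.27 ± 0.10 passed the test (edgeR FDR = 4.23e-19). Next to it, 41191 bases downstream, a site chosen after its values were seen fell from 7.5 ± 0.502 CPM in Control to 3.23 ± 0.206 and 4.74 ± 0.682 in the combinations, while shARID1B.2 measured 9.91 ± 0.794 and shARID1B.3 4.85 ± 0.549. The site 19903 bases downstream fell less, by log2 -0.44 ± 0.11 (edgeR FDR = 0.00112), and with offsets that follow abundance it was not called (-0.31, edgeR FDR = 0.0163).

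PDGFRA and KIT, neighbouring genes on chromosome 4 that encode the PDGF-alpha and stem cell factor receptors, held sites where the shRNAs did not act alike. The largest PDGFRA fall among sites of at least 1 CPM lay 31599 bases upstream (chr4:54196887-54198502, intergenic), where a site measured 33.8, 33.2 and 33.4 CPM in Control. It measured 43.6, 41.6 and 40.6 CPM with shARID1A.2 but 18.4, 21.1 and 18.5 CPM with shARID1A.4. These libraries lay above and below Control without overlap, and shARID1A.2 exceeded shARID1A.4 by log2 1.11 ± 0.09 (SE, edgeR FDR = 4.02e-17). Both ARID1B shRNAs lowered the site, to 21.6 ± 0.717 CPM for shARID1B.2 and 16.5 ± 1.7 for shARID1B.3. The combination shARID1A/B.2.3 measured 31.1, 34.5 and 30.6 CPM, which overlapped Control, and shARID1A/B.4.2 measured 15.7, 14.5 and 14.6 CPM. The combinations differed by log2 1.10 ± 0.09 (edgeR FDR = 4.75e-17), so the pooled fall of -0.61 ± 0.08 (edgeR FDR = 1.58e-10) came from shARID1A/B.4.2 alone (-1.16 ± 0.09, edgeR FDR = 1.47e-18, against -0.06 ± 0.09 and 0.693 for shARID1A/B.2.3).

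A weaker PDGFRA site 13463 bases upstream, chosen after its values were seen, also separated the ARID1A shRNAs, at 4.06 ± 0.369 CPM for shARID1A.2 and 1.49 ± 0.256 for shARID1A.4 (edgeR FDR = 1.05e-08), beside 2.37 ± 0.0575 in Control. The start of the PDGFRA MANE Select transcript lay in no site. The site in intron 1, 4271 bases downstream (chr4:54232633-54234496), opened in both combinations, from 26.8, 24.2 and 26.7 CPM in Control to 36.7, 34.8 and 35.8 CPM in shARID1A/B.2.3 and 33.2, 35.8 and 33.1 CPM in shARID1A/B.4.2. The groups did not overlap (log2 0.43 ± 0.08, SE, edgeR FDR = 6e-06), and ARID1A and ARID1B silencing alone gave 0.31 and 0.30. Scaled on promoter sites the change was 0.20 and was not called (edgeR FDR = 0.013).

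In KIT, the site 43150 bases downstream (chr4:54700292-54701922) was lower with ARID1A shRNAs and not with ARID1B shRNAs. Control measured 6.26, 6.37 and 5.81 CPM, shARID1A.2 3.31, 3.25 and 3.41 CPM, and shARID1A.4 4.81, 3.93 and 4.01 CPM. The shARID1B.2 libraries measured 6.87, 5.76 and 7.45 CPM and the shARID1B.3 libraries 8.57, 8.99 and 8.28 CPM, all 3 of the latter above Control (log2 0.49 ± 0.12, edgeR FDR = 0.00127). ARID1A silencing gave -0.71 ± 0.12 (edgeR FDR = 1.92e-06) and differed from ARID1B silencing by -1.02 ± 0.09 (edgeR FDR = 8.17e-15). Both combinations were low, at 4.06 ± 0.0359 and 3.21 ± 0.507 CPM.

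At the KIT site 58953 bases downstream (chr4:54715502-54718319) shARID1A/B.4.2 measured 6.27, 7.32 and 6.4 CPM and shARID1B.2, one of its shRNAs, 6.96, 6.32 and 6.44 CPM, all above the Control values of 3.37, 3.21 and 3.49 CPM. Its other shRNA, shARID1A.4, measured 5.17, 4.25 and 4.63 CPM, also above Control but not called (log2 0.48 ± 0.15, edgeR FDR = 0.0199). The means were 3.91 ± 0.337 CPM with shARID1B.3 and 2.78 ± 0.516 with shARID1A.2. The shARID1A/B.2.3 libraries measured 2.99, 3.35 and 3.25 CPM and overlapped Control. The pooled rise of log2 0.46 ± 0.13 (edgeR FDR = 0.00358) rested on shARID1A/B.4.2 (0.99 ± 0.14, edgeR FDR = 1.28e-08), and scaled on promoter sites it was 0.23 and not called (edgeR FDR = 0.237). Without Control replicate 1, 2 or 3 it had an edgeR FDR of 0.0171, 0.0279 or 0.0126, and without shARID1A/B.4.2 replicate 2 of 0.0125. A site 65943 bases downstream, chosen after its values were seen, was lower in shARID1A/B.2.3 (7.73 ± 0.268 CPM) than in Control (12.4 ± 0.911) or shARID1A/B.4.2 (13.3 ± 0.869). The site over the KIT start was not called, at 39.9 ± 0.563 CPM in Control and 34.4 ± 0.705 and 39.8 ± 1.58 in the combinations.

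**Figure D3:**
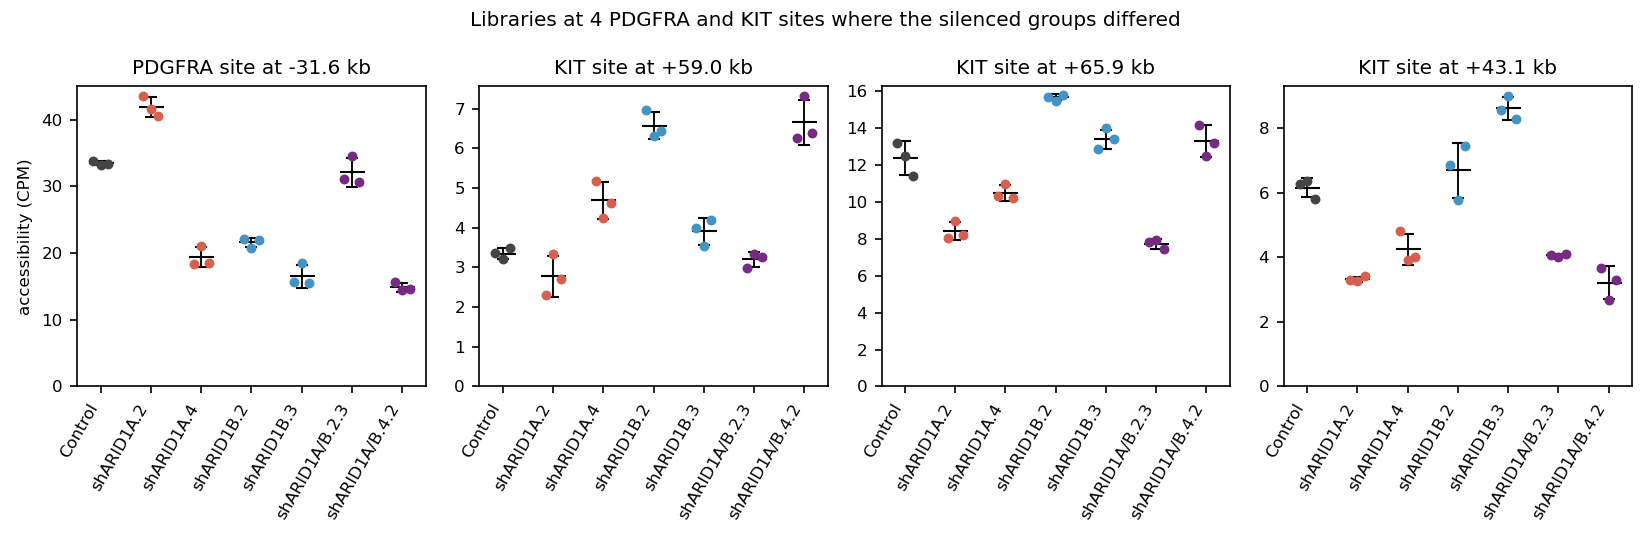
Points are single libraries, bars the mean ± SD (n = 3), and the y axis is accessibility in CPM for the 7 groups. At the PDGFRA site shARID1A.2 (mean 41.9 CPM) and shARID1A.4 (19.4 CPM) lie on opposite sides of Control (33.5 CPM), and at the KIT sites 58953 and 65943 bases downstream the combinations lie apart, at 3.2 and 6.66 CPM and at 7.73 and 13.3 CPM.

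EGFR and MET, the receptors for EGF-family ligands and for hepatocyte growth factor, showed few changes. The site over the EGFR start (chr7:55018522-55020744) measured 24.7, 22.4 and 24.7 CPM in Control, 27.7, 25.3 and 26.1 CPM in shARID1A/B.2.3, and 31.2, 33.6 and 36.5 CPM in shARID1A/B.4.2. The combination libraries lay above Control, for a log2 change of 0.32 ± 0.08 (SE, edgeR FDR = 0.0013), and shARID1A/B.4.2 exceeded shARID1A/B.2.3 (edgeR FDR = 0.0034). Without Control replicate 2 the change was 0.27 and was not called (edgeR FDR = 0.0254). A weak EGFR site 37873 bases upstream rose from 1.43 ± 0.205 CPM in Control to 1.94 ± 0.131 and 2.42 ± 0.36 in the combinations (log2 0.59 ± 0.17, edgeR FDR = 0.00648). That call was lost with DESeq2 (adjusted p = 0.0225), with promoter scaling (edgeR FDR = 0.156), with only the compared groups (0.0155) and without any 1 Control library, at edgeR FDR values of 0.0719, 0.0225 and 0.0114 without replicates 1, 2 and 3, without shARID1A/B.2.3 replicate 2 (0.0146) and without shARID1A/B.4.2 replicate 1 (0.0263). No MET site was called by edgeR or DESeq2 in the combinations, with 2 sites lower and 2 higher at an unadjusted p under 0.05. Its start (chr7:116671663-116673173) measured 13.4 ± 1.09 CPM in Control and 14.6 ± 0.74 and 16.2 ± 0.397 in the combinations (log2 0.20 ± 0.09, edgeR FDR = 0.104).

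Of the 9 genes whose MANE Select start lay in a site, FGFR1, IGF1R and EGFR starts opened in the combinations and none closed. Among all sites annotated as promoters, 33.4% opened and 4.24% closed. Only the IGF1R, FGFR4 and MET starts carry that annotation. The other starts are annotated as intron or exon, so these shares are not of like sites. In shARID1A/B.2.3 alone the FGFR1, IGF1R and EGFR starts were not called by edgeR (log2 0.23, 0.21 and 0.14, FDR = 0.0406, 0.0581 and 0.298). In shARID1A/B.4.2 all 3 were called (0.53, 0.47 and 0.50). The FGFR1 start went from 37.4 ± 3.24 CPM in Control to 44 ± 2.9 and 53.9 ± 1.88 in the combinations (log2 0.38 ± 0.08, edgeR FDR = 3.59e-05), and the IGF1R start from 46.4 ± 2.9 to 53.5 ± 2.2 and 64.2 ± 0.257 (0.34 ± 0.07, edgeR FDR = 0.0001). Per kb of site, mean accessibility over all libraries was highest at the KIT start (17.3 CPM per kb) and lowest at the FGFR3 start (5.17 CPM per kb). The promoter share of reads, given above, was also higher in the combination libraries than in the Control libraries. Whether it followed the levels across all 7 groups was not computed, and its part in the rises was not tested. Scaled on promoter sites they were 0.15 for FGFR1, 0.11 for IGF1R and 0.09 for EGFR (edgeR FDR = 0.0571, 0.174 and 0.389), and with offsets that follow abundance 0.14, 0.06 and 0.18 (0.0574, 0.467 and 0.0262), so none was called. Under these same scalings the KIT start was called lower (-0.34 and -0.31), and so was the PDGFRB start (-0.31 and -0.24).

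**Figure D4:**
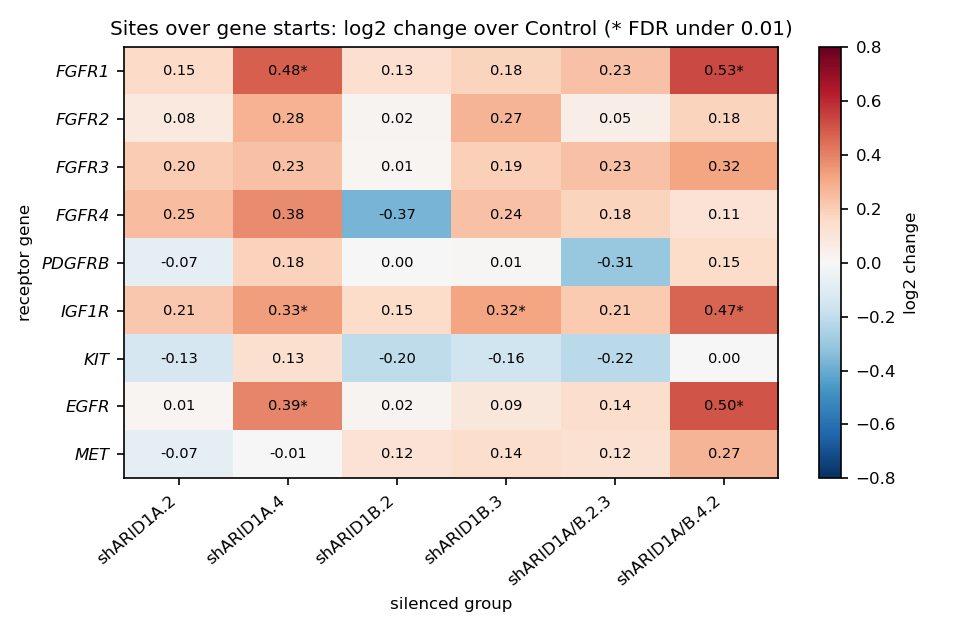
Rows are the 9 genes whose start lies in a site, columns the 6 silenced groups, and colour and number give the log2 change over Control, with an asterisk at an edgeR FDR under 0.01. The FGFR1, IGF1R and EGFR starts are marked in shARID1A.4 and shARID1A/B.4.2, at 0.33 to 0.53, and the IGF1R start also in shARID1B.3.

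The number of receptor sites called differed between the combinations and between the single genes, as it did over all tested sites. The combination shARID1A/B.2.3 closed 31 (13.4%) and opened 5 (2.16%) of 232 sites, beside 10.4% and 2.85% of all sites. The combination shARID1A/B.4.2 closed 21 (9.05%) and opened 8 (3.45%), beside 7.37% and 3.97%. ARID1A silencing closed 19 (8.19%) and opened 3 (1.29%), beside 5.37% and 1.67%. ARID1B silencing closed 9 (3.88%) and opened 2 (0.862%), beside 3.53% and 1.39%. Differences from the shares of all sites were not tested. No ARID1A site was called opened without Control replicate 2 (20 closed), with offsets that follow abundance (20 closed) or with promoter scaling (31 closed), and ARID1B silencing gave 16 closed and 0 opened with promoter scaling. Over all 357029 sites, ARID1A silencing in these settings gave 17353 closed and 1858 opened, 18582 and 6254, and 34100 and 1199. ARID1B silencing with promoter scaling gave 20590 and 2099. The comparisons of both combinations, ARID1A silencing and ARID1B silencing with Control share the Control libraries. Compared directly, ARID1A silencing gave 11 sites lower (4.74%) and 5 higher (2.16%) than ARID1B silencing, where 3.69% and 1.05% of all sites were called. The lower ones included IGF1R, KIT, FGFR1 and FGFR2 sites described above, and the higher ones the PDGFRA site 31599 bases upstream (log2 0.59 ± 0.07, edgeR FDR = 8.15e-12) and the FGFR4 start (0.38 ± 0.08, edgeR FDR = 0.00032).

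Combined silencing gave 22 sites lower (9.48%) than the single groups, beside 6.85% of all sites. It gave 0 higher by edgeR or DESeq2, beside 0.969%, with 22 higher at an unadjusted p under 0.05. Offsets that follow abundance gave 18 lower and 4 higher, total counts 21 and 2, and the replicate block 23 and 1. Over all 357029 sites these settings gave 21319 and 5964, 23415 and 5780, and 25459 and 4347. Of the 22 lower sites, 6 belonged to PDGFRB, 6 to FGFR2, 5 to FGFR1, 4 to IGF1R and 1 to KIT. Between the combinations, shARID1A/B.2.3 had 17 sites lower (7.33%) and 3 higher (1.29%) than shARID1A/B.4.2, beside 3.79% and 1.43%. Scaled on promoter sites these were 7 lower and 8 higher, with total counts 13 and 6, and with offsets that follow abundance 12 and 5. Over all 357029 sites the same scalings gave 6443 and 11832, 9987 and 8317, and 9747 and 7321. The total of 20 with TMM was 10 without shARID1A/B.2.3 replicate 2, beside 8156 lower and 3655 higher of all sites. It was 13 without shARID1A/B.4.2 replicate 3, beside 9219 and 3202 of all sites.

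Motif matches were counted in the central 300 bases of every tested site on GRCh38, with overlapping matches kept. The E-box CATCTG was present in 16 of the 30 closed receptor sites (53.3%), in 21% of the 195 receptor sites not called, in 33% of all closed sites and in 23% of all 357028 tested sites on reference chromosomes. Among the sequences printed above, the PDGFRA window holds 2 matches, and the PDGFRB, IGF1R and both KIT windows 1 each. The GATA motif was in 20.0% of closed receptor sites, 24.7% of all closed sites and 17.0% of all tested sites, and TEAD in 16.7%, 17.9% and 16.8%. The homeodomain core was in 13.3%, 14.1% and 7.87%, and AP-1 in 3.33%, 14.3% and 10.9%. These shares are descriptions of letters in a window and were not tested.

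**Figure D5:**
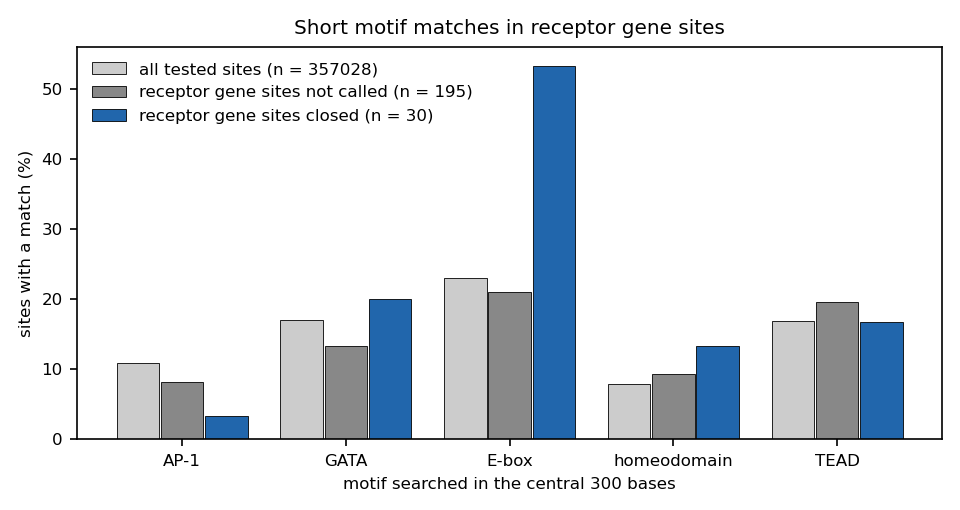
Bars give the share of sites, in percent, with at least 1 match to each motif in the central 300 bases, for all tested sites, receptor gene sites not called and receptor gene sites closed in the combinations. The E-box bars stand at 23%, 21% and 53.3%.

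Other genes of the pathway were read from 5 lists. Ligand genes closed at 40 and opened at 20 of 586 sites (6.83% and 3.41%, median log2 0.06), and adaptors and signal relays at 42 and 20 of 384 (10.9% and 5.21%, median -0.01). Feedback inhibitors closed at 66 and opened at 24 of 517 sites (12.8% and 4.64%, median -0.01), and related receptors at 14 and 1 of 156 (8.97% and 0.641%, median -0.01). Co-receptors and binding proteins closed at 54 and opened at 15 of 208 (26% and 7.21%, median -0.13), beside the 10.3% and 3.43% of all sites. NRP2 and NRP1, neuropilins that act as co-receptors for VEGF and semaphorins, held 27 and 12 of those 54 closed sites.

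The called sites of smallest p-value in these lists were closed sites. An NRP2 intron site went from 26.5 ± 1.52 CPM in Control to 5.0 ± 0.617 in shARID1A/B.2.3 and 7.6 ± 0.399 in shARID1A/B.4.2 (log2 -2.11 ± 0.09, edgeR FDR = 2.49e-36). An intron site of FGF7, a ligand of FGFR2, fell from 5.09 ± 1.08 to 0.712 ± 0.173 and 1.13 ± 0.0531 CPM (-2.54 ± 0.16, edgeR FDR = 7.08e-25). A site of SPRY4, a Sprouty inhibitor of receptor signalling, fell from 10.5 ± 0.763 to 1.87 ± 0.332 and 4.12 ± 0.123 CPM (-1.94 ± 0.11, edgeR FDR = 1.32e-27). A site in PIK3CB, a PI3K catalytic subunit, changed by log2 -1.77 ± 0.10 (edgeR FDR = 1.37e-27), and one in CSF1R, a receptor related to KIT, by -1.28 ± 0.12 (edgeR FDR = 2.33e-15).

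The 5 sites of other genes whose level followed the PDGFRB site 2508 bases upstream most closely, by Pearson correlation of log2 CPM over 21 libraries among 181893 sites, were assigned to AC090505.6 (0.984), LOC102724140 (0.974), FRZB (0.973), SRP9 (0.97) and LOC285638 (0.968). All values come from the same libraries and share their depth and grouping.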

How the data were processed

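ATAC-seq libraries of SK-N-BE(2) cells were analysed from tables of raw counts per consensus site and library, as deposited by the authors. Reads had been aligned to GRCh38 per the labels; which aligner, peak caller and counter were run is not given in the sources used here. File names point to consensus sites from merged replicates. The submitters' processing notes name DESeq2; the fold changes and p-values of the deposited tables were not used. Gene names and site classes came from the deposited HOMER annotation. Sites were kept by filterByExpr (minimum count 10), scaled by TMM, and tested with edgeR 4.0.16 (R 4.3.3; quasi-likelihood test, all 21 libraries, Benjamini-Hochberg over 357029 sites). SE was the log2 change divided by the square root of F. Alternatives included DESeq2 1.42.0, other scalings and each library left out. For each gene the text names the sites at its start, the largest fall and the largest rise among called sites with at least 1 CPM, or the highest site. Sites over MANE Select starts (GENCODE v44) and contrasts between the 2 shRNAs of a gene were added after the data were seen. Members, lists and motifs were chosen with earlier results of these data known. Same-numbered Control and shARID1A/B.2.3 libraries deviated together (correlations 0.173, 0.471 and 0.183). Control replicate 3 with shARID1A/B.2.3 replicate 1 (0.21) and Control replicate 1 with shARID1A/B.2.3 replicate 3 (0.141) did so too. Differently numbered pairs that included a replicate 2 ran from -0.321 to -0.257. These values do not settle whether the 2 groups are paired by number, so a fit with a replicate block was added. The other groups did not deviate together with Control throughout. The tests were checked on simulated counts. Count totals limit precision, and weak sites rest on few reads.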

Additional observations from a re-analysis of the deposited data

Results flagged for a closer look

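The effect of silencing differed between groups, by a direct test of the difference, at 11 of the named sites. Between ARID1A and ARID1B silencing, the log2 difference (ARID1A minus ARID1B) was -0.63 at the FGFR1 site 32767 bases downstream, -0.77 at the FGFR2 site 143001 bases downstream, -0.415 and -1.27 at the IGF1R sites 19903 and 30864 bases downstream, and -1.02 and -0.48 at the KIT sites 43150 and 58953 bases downstream. It was 0.38 at the FGFR4 start and 0.59 at the PDGFRA site 31599 bases upstream, where single shRNAs differed. At FGFR4 shARID1B.2 (7.97 CPM) lay apart from shARID1B.3 (12 CPM) and the ARID1A shRNAs (12.2 and 13.3 CPM). At PDGFRA shARID1A.2 (41.9 CPM) lay apart from shARID1A.4 (19.4 CPM) and the ARID1B shRNAs (21.6 and 16.5 CPM). The shRNAs of a gene also differed at the KIT site 58953 bases downstream (edgeR FDR = 0.000374 for ARID1A and 4.46e-06 for ARID1B). So did the ARID1A shRNAs at the IGF1R site 30864 bases downstream (edgeR FDR = 0.00084). The ARID1B shRNAs differed at the IGF1R site 19903 bases downstream (edgeR FDR = 0.000983).

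Between the combinations, the log2 difference (shARID1A/B.2.3 minus shARID1A/B.4.2) was -0.36 at the EGFR start, -0.73 at the FGFR1 site 32767 bases downstream, -0.60 at the IGF1R site 30864 bases downstream, -1.055 at the KIT site 58953 bases downstream, -0.455 at the PDGFRB start and -0.815 at the PDGFRB site 2508 bases upstream. The PDGFRA site 31599 bases upstream was higher in shARID1A/B.2.3, by 1.10. The edgeR FDR of these differences between the combinations ran from 4.75e-17 to 0.00586. For the differences between ARID1A and ARID1B silencing it ran from 4.23e-19 to 0.000362.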

How the results depend on the processing

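The log2 change in the combinations kept its direction and call under each of 17 alternatives at the largest falls in PDGFRB (-2.58 to -2.20), FGFR2 (-1.92 to -1.61), IGF1R (-1.84 to -1.45), FGFR1 (-1.44 to -1.08), KIT (-0.999 to -0.61) and PDGFRA (-0.84 to -0.59). Scaling on promoter sites gave 46 closed and 0 opened receptor sites in the combinations together, beside 56825 and 2601 of all 357029 sites. In shARID1A/B.4.2 it gave 45 and 1, beside 53888 and 2893 of all sites. It turned the sign at the starts of FGFR2 (-0.118), FGFR4 (-0.086) and MET (-0.039) and at the PDGFRA site 1384 bases upstream (-0.02), none of them called. Offsets that follow abundance gave -0.007 at the FGFR2 start. In shARID1A/B.2.3 the opened sites numbered 8 with total counts, 10 with those offsets, 8 at an FDR under 0.05 and 2 within 100000 bases of the annotated start. Over all 357029 sites, 15884 opened there with total counts and 17172 with those offsets, where TMM gave 10172. At an FDR under 0.05, ARID1B silencing called 17 sites. Shares over all sites at that FDR, and for shARID1A/B.2.3 within that distance, were not computed.

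Requiring a log2 change of at least 1 left 10 closed and 0 opened sites in the combinations together, 14 and 0 in shARID1A/B.2.3, and 9 and 0 in shARID1A/B.4.2. It left 3 sites for ARID1A silencing, 1 for ARID1B silencing, 1 for combined against single silencing, 3 for ARID1A against ARID1B silencing and 3 between the combinations. Shares over all tested sites at that size limit were not computed, so these counts cannot be set against the background. Leaving out 1 library at a time gave 3 to 8 opened sites in the combinations, with 3 without Control replicate 2, and 10 to 20 called sites between the combinations. Without Control replicate 2, 7266 of all 357029 sites opened in the combinations. DESeq2 called 24 closed and 5 opened sites in the combinations, beside 30343 and 9307 of all sites. Over all groups, 12 of 63 same-numbered pairs of libraries had a correlation of deviations over 0.1, as had 18 of 126 pairs with different numbers. With the replicate block, combined silencing closed 30 and opened 7 sites, beside 37437 and 13764 of all sites. With that block shARID1A/B.2.3 closed 33 and opened 5, beside 37875 and 11571, and the call totals of the other comparisons stayed within 1.5 times.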
